A study of Caenorhabditis elegans with 3 samples.

Results

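The regions described here are the peaks of the transcription factor EGL-27 that lie in bidirectional promoters of Caenorhabditis elegans. A peak was counted as such when its summit lay from 1000 bp upstream to 200 bp downstream of the annotated 5' ends of protein-coding genes on both strands. Of the 1997 peaks that the authors kept by the irreproducible discovery rate (IDR), a filter on the agreement of peak ranks between replicates, 259 (12.97%) met this rule. A further 671 peaks had their summit in the window of genes on 1 strand only and are called single-strand promoter peaks, and 1067 lay outside promoter windows. The IDR peaks come from chromatin immunoprecipitation and sequencing in whole larvae of the L2 stage, in 1 group with 3 biological replicates. The animals were of strain OP177, with the genotype unc-119(ed3) III; wgIs177, and carried EGL-27 with GFP and FLAG fused to the C-terminus. Males and females were pooled, their age was given as unknown, and the chromatin was sheared by sonication. The peaks are therefore a sum over all cells of the larva and report the tagged protein. The samples share 1 genotype and stage, and no transcript level was analysed here, so whether a region acts on both of its genes is not shown by these data.

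In a bidirectional promoter, a pair of neighbouring genes is transcribed in opposite directions from starts that face away from each other, so that the sequence between them is upstream of both. In C. elegans many genes are trans-spliced, which means that a leader from another RNA replaces the first part of the transcript, and the annotated 5' end can then be the splice site and not the start of transcription. EGL-27 is a homologue of the MTA subunits of NuRD, a complex that deacetylates histones and remodels nucleosomes, and it carries a zinc finger of the GATA type.

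The sequences around the summits of 6 strong bidirectional promoter peaks show the short motifs that the comparisons below turn on. Each runs over 121 bp centred on the summit, 5' to 3' on the plus strand of ce11 (WBcel235), and lies between the genes named. Capitals mark ACCGTA, which reads as TACGGT where it lies on the minus strand. They also mark CGCTCC, which then reads as GGAGCG. The other 2 are GAGAGA, in its reverse complement TCTCTC, and TGCGTC, in its reverse complement GACGCA. The pairs with rpl-20, rpl-15, rps-1 and cap-2 hold ACCGTA, the hexamer with the highest ratio to single-strand promoter peaks among those present at 10% or more of the bidirectional promoter peaks. The pair of drr-2 and set-16 holds GAGAGA and TGCGTC, which overlap there in 1 place, and the pair of nhl-2 and tag-340 holds none of the 4.
rpl-20 and Y17G9B.5, chrIV:4750010-4750130, plus strand: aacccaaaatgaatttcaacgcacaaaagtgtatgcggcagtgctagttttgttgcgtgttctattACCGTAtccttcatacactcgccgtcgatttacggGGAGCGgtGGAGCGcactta
rpl-15 and K11H12.8, chrIV:654871-654991, plus strand: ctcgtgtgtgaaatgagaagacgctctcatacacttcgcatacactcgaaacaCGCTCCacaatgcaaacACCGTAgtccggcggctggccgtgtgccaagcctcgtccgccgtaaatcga
ifet-1 and rps-1, chrIII:4475623-4475743, plus strand: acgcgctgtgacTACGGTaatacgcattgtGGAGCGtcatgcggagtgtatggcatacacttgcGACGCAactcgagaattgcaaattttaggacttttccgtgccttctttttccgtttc
gmps-1 and cap-2, chrII:10868911-10869031, plus strand: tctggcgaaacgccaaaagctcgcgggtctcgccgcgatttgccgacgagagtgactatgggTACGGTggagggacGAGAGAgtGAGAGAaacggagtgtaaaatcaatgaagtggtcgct
drr-2 and set-16, chrIII:13643683-13643803, plus strand: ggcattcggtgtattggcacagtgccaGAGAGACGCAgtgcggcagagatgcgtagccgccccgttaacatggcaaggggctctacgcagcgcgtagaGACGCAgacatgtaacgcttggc
nhl-2 and tag-340, chrIII:4899862-4899982, plus strand: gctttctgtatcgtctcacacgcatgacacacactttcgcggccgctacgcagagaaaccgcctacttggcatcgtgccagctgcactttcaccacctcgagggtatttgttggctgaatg

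Summits of IDR peaks were denser in bidirectional promoter sequence than in any other part of the genome that was compared. The windows of genes on both strands covered 2.09 Mb, or 2.09% of the nuclear genome, and held 124 summits per Mb, against 34.5 per Mb in windows on 1 strand and 13.5 per Mb outside windows. Sequence outside exons of protein-coding genes made up 70.9%, 69.9% and 70.6% of these classes, and there the densities were 162, 46.4 and 18.4 per Mb. Bidirectional windows lie closer to 5' ends, so the densities were also compared at equal distance from the nearest 5' end, where the bidirectional windows held more summits in each range. Within 100 bp of an end there were 139 summits per Mb in bidirectional windows and 29.9 in single-strand windows. From 100 to 200 bp the densities were 137 and 48.8, and from 200 to 300 bp they were 186 and 57.8. From 300 to 500 bp they were 71.2 and 41.2, and from 500 to 1000 bp they were 45.2 and 21.2.

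The longer list of 30000 regions that the authors called on the pooled replicates, before the IDR filter, had 1118 summits in bidirectional promoters. Of these, 23.2% were kept as IDR peaks, against 9.54% of regions in single-strand windows, 4.88% of those outside windows and 6.66% of all regions in the list.

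Each replicate showed the higher density by itself. The 1997 strongest regions of every replicate's own list, a number set to that of the IDR peaks, were classified in the same way. Bidirectional promoters held 121 of them (6.06%) in replicate 1, 263 (13.2%) in replicate 2 and 233 (11.7%) in replicate 3. Replicate 1 was the lowest, and its whole list was shorter, with 13245 regions against 30000 in each of the others. Per Mb these were 57.8, 126 and 111 in replicates 1, 2 and 3, a mean of 98.3 ± 35.8 (SD, n = 3). Single-strand windows held 26.6, 34.1 and 33.5 per Mb, a mean of 31.4 ± 4.19 (SD, n = 3). The ranges of the classes did not overlap. The difference was 66.9 ± 31.6 per Mb (SD, n = 3) and had the same sign in 3 of 3 replicates, and the exact paired permutation test over replicates gave p = 0.25, two-sided, the smallest value that 3 pairs allow. The ratio of the densities was 2.18, 3.68 and 3.33 in the same order.

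**Figure D1:**
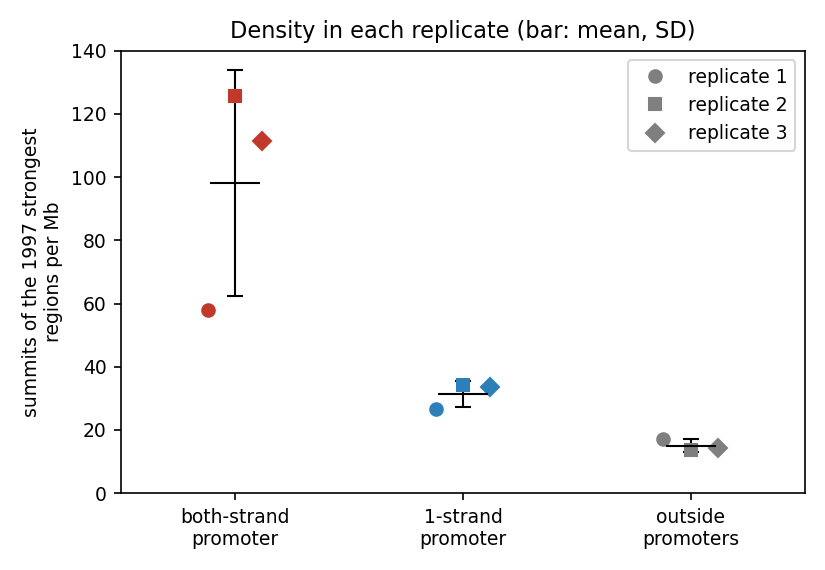
Summits per Mb (vertical axis) of the 1997 strongest regions of each replicate, by class of sequence; symbols are replicates, and the horizontal line and bar are the mean and SD over 3 replicates. Bidirectional promoter sequence holds 57.8 to 126 per Mb, above the 26.6 to 34.1 per Mb of single-strand windows in every replicate.

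The strength of binding was close to that of other promoter peaks. The signal, the authors' value for each region in the pooled list with no scale named, had a median of 54.2 over the 259 peaks (quartiles 42.4 and 79.6, range 34.8 to 266). The medians were 51.9 for single-strand promoter peaks and 49.7 for peaks outside promoters. Of the 100 strongest IDR peaks 13 were in bidirectional promoters, near the share in the whole set. In the replicates' own lists rank 1 is the strongest region, and peaks with no listed region were left out. Replicate 1 listed 157 of the 259 bidirectional and 404 of the 671 single-strand promoter peaks. The median rank of bidirectional and single-strand promoter peaks was 1618 and 1675 in replicate 1. It was 825 and 996 in replicate 2 and 1072 and 1011 in replicate 3. The order thus changed between replicates, and the mean difference of -55.3 ± 116 ranks (SD, n = 3) was smaller than its spread (exact paired permutation test, two-sided, p = 0.75). The difference had the other sign without replicate 2 (2.25 ranks) and among the stronger 998 IDR peaks (52.7 ranks). For the stronger 998 peaks the exact paired permutation test, two-sided, gave p = 0.25, the smallest value that 3 pairs allow.

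Replicates 2 and 3 carried most of the 259 peaks among their strongest regions, as they did most of all IDR peaks. A region of the whole list overlapped 157, 258 and 257 of the peaks in replicates 1, 2 and 3. Among the strongest regions these numbers were 83 (32.0%), 213 (82.2%) and 200 (77.2%). In all, 69 peaks were found among the strongest regions of every replicate, 111 in 2 replicates, 67 in 1 and 12 in none. The 69 peaks are 26.6% of the set, near the 25.0% of all IDR peaks found in every replicate. IDR peaks were derived from these lists, so the overlap is no independent measure. Requiring a peak to be among the strongest regions of the other 2 replicates left 168 bidirectional promoter peaks when replicate 1 was set aside, 74 for replicate 2 and 76 for replicate 3. The summit in the replicate stood at a median of 34 bp from the pooled summit in replicate 1 and 11 bp in each of the others, and 64.3%, 91.9% and 91.8% of summits lay within 50 bp.

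The strongest bidirectional promoter peak lay between rpl-20, a protein of the large ribosomal subunit on the minus strand, and Y17G9B.5 on the plus strand (chrIV:4749961-4750202, pooled signal 266). Its signal was 37.8, 96.9 and 129 in replicates 1, 2 and 3, where it ranked 2, 14 and 13. The peak between rpl-15, also of the large subunit, and K11H12.8 (chrIV:654809-655049, pooled signal 254) had 18.5, 114 and 120 and ranked 55, 9 and 22. These 2 summits were both over 150 bp from either gene, at -292 bp from the 5' end of rpl-20 and -170 bp from Y17G9B.5, and at -355 bp from rpl-15 and -459 bp from K11H12.8. The peak between ska-3, a subunit of the spindle and kinetochore-associated complex, and rps-12 of the small ribosomal subunit (chrIII:5679025-5679249, pooled signal 219) had signals of 13.7, 91.0 and 114. Its ranks of 139, 19 and 24 placed it lower in replicate 1 than in the others. The peak between nhl-2, a TRIM-NHL protein that acts with microRNAs, and tag-340 (chrIII:4899784-4900045, pooled signal 199.9) lay far from both genes, at -837 and -586 bp. It had signals of 9.97, 81.8 and 109 and ranks of 344, 31 and 28.

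The peak at iff-2, the homologue of translation factor eIF5A, and F54C9.14 (chrII:8561326-8561569, pooled signal 194) was among the steadiest of the 12 strongest, with ranks of 32, 34 and 49. The peak between rpl-12 and lin-54, the DNA-binding subunit of the DREAM repressor complex (chrIV:13240572-13240787, pooled signal 189.9), had a signal of 3.81 in replicate 1 against 87.5 and 96.5 in replicates 2 and 3. Its rank of 4987 in replicate 1, against 23 and 36, put it outside that replicate's strongest regions. The peak between drr-2, an RNA-binding protein, and set-16, a histone H3 lysine 4 methyltransferase of the MLL family (chrIII:13643625-13643857, pooled signal 189.0), stood at -173 bp from both 5' ends. It ranked 140, 30 and 43. The peak between ifet-1, an eIF4E-binding repressor of translation, and rps-1 (chrIII:4475565-4475786) had a pooled signal of 175.4 and ranked 2143, 51 and 44, and that between K01G5.10 and tasp-1, the taspase homologue (chrIII:10759133-10759386, pooled signal 174.7), ranked 4115, 79 and 30. At the last 4 of these peaks replicate 1 had the lowest place, outside the range of the other 2.

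The last 3 of the 12 were found among the strongest regions of every replicate. They were the peak between rps-20 and ekl-4, the DMAP1 homologue (chrI:14469242-14469434, pooled signal 147), with ranks of 91, 206 and 47, the peak at malt-1, the MALT1 paracaspase homologue, and ceh-38, a ONECUT homeobox factor (chrII:6951537-6951667, pooled signal 135), with ranks of 149, 136 and 97, and the peak between the F-box gene fbxb-85 and hex-3, a hexosaminidase (chrIII:10848935-10849101, pooled signal 134), with ranks of 47, 98 and 177. The ceh-38 peak was the only one of the 12 not between the genes: its summit lay in a UTR, 79 bp downstream of the ceh-38 5' end. Of the 12 regions 6 had a gene of a cytosolic ribosomal protein on 1 side.

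**Figure D2:**
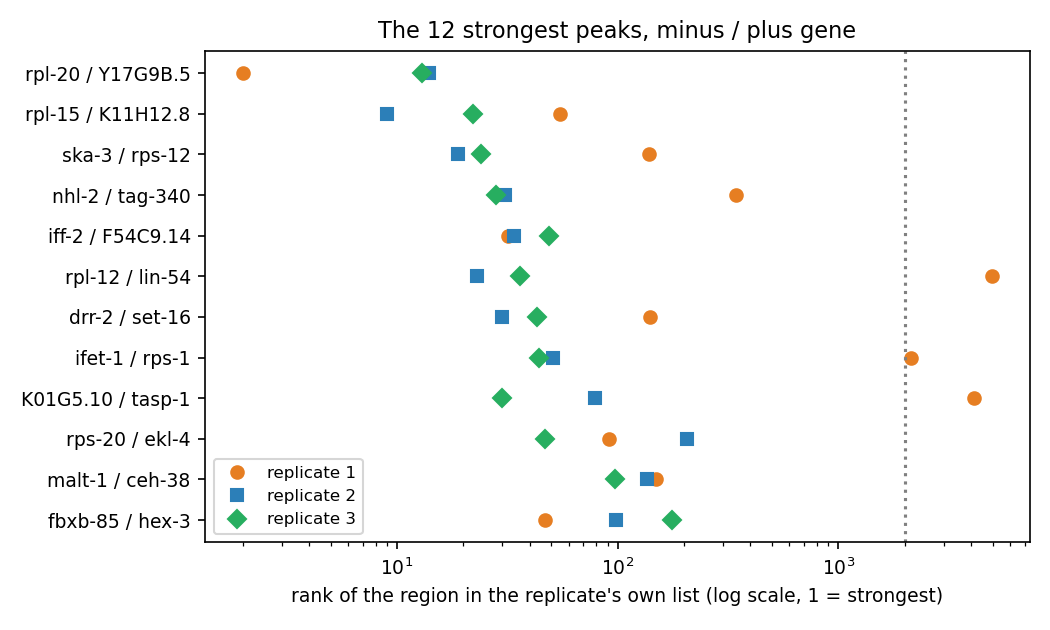
Rank of each of the 12 strongest bidirectional promoter peaks in the list of each replicate (horizontal axis, log scale), with the gene on the minus strand named first; the dotted line marks rank 1997. In replicates 2 and 3 all 12 rank within the first 206, and in replicate 1 the peaks at lin-54, rps-1 and tasp-1 rank beyond 1997.

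All 259 peaks lay at genes that stood head to head, with no overlap between the genes' 5' ends. The distance between the 5' ends had a median of 485 bp (quartiles 319 and 780, range 12 to 1697). The summit was between the ends in 240 peaks (92.7%), and in the replicates' own strongest regions of the class this share was 88.1% ± 3.86 (SD, n = 3). The rule sets part of the share between the ends, since it reaches only 200 bp downstream of an end. For ends over 1000 bp apart only summits between them meet the rule. By annotation 237 summits lay between genes, 15 in a UTR, 4 in an intron and 3 in a coding exon. The summit was a median of 147 bp from the nearer 5' end (quartiles 65 and 225) and 344 bp from the farther one (quartiles 226 and 551). For single-strand promoter peaks the nearest end was at a median of 268 bp. A shorter distance follows in part from the rule, since 2 ends in reach leave less room.

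Summits were about equally often nearer to the gene on either strand. Among the 240 summits between the ends, the position from the minus-strand gene (0) to the plus-strand gene (1) had a median of 0.509 (quartiles 0.306 and 0.687). With the gap cut into 3 equal parts, 108 summits (45%) lay in the middle part. The rule itself holds summits near the middle where the ends are over 1000 bp apart. By distance between the ends, the median position counted from the nearer end (0) was 0.267 up to 200 bp, 0.310 at 200 to 400 bp and 0.380 at 400 to 600 bp. It was 0.300 at 600 to 800 bp and 0.253 at 800 to 1000 bp, so among gaps of up to 1000 bp it was highest at 400 to 600 bp. The plus-strand gene was nearer in 122 cases and the minus-strand gene in 117, and the drr-2 and set-16 peak was at the same distance from both. Both ends were within 300 bp of the summit at 119 peaks (45.9%). The region itself, with a median width of 350 bp, covered both ends in 28 cases, a single end in 109 and no end in 122. Across the 259 peaks the rank correlation of signal with the distance between the ends was 0.036 (Spearman's rho, as a description).

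**Figure D3:**
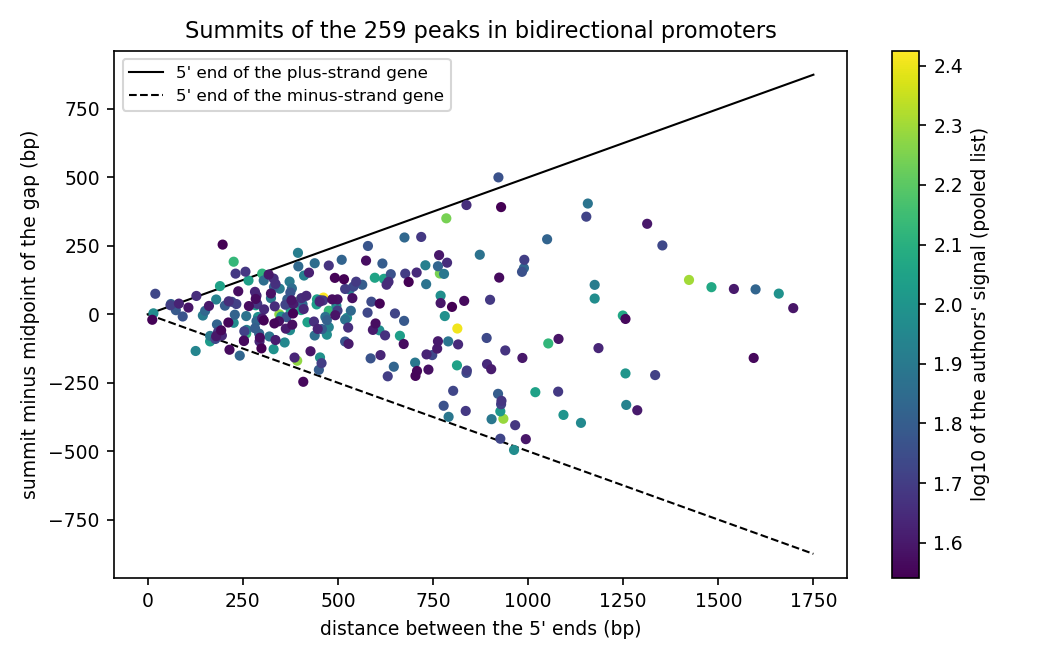
Distance between the 5' ends (horizontal axis, bp) and position of the summit from the midpoint of the gap (vertical axis, bp; positive towards the plus-strand gene) for the 259 peaks, coloured by log10 of the authors' signal; the lines mark the 5' ends. The points spread around 0 and 240 of them lie between the lines.

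At 239 peaks the windows held 2 genes, at 19 they held 3 and at 1 they held 4 (lsm-3, mdt-9, Y62E10A.20 and Y62E10A.23, signal 50.9). At 2 gene pairs there were 2 peaks each. Between gcy-33, a guanylate cyclase, and cpr-9, a cathepsin B-related protease, the regions overlapped (signals 100.2 and 36.4) and matched the same regions in all replicates, so they are no separate observations there. Between ecps-1 and atx-2, the ataxin-2 homologue, the summits lay at -205 bp from ecps-1 (signal 55.7) and at -20 bp from atx-2 (signal 45.3). The replicates listed these as different regions. The stronger had signals of 28.2 and 27.05 in replicates 2 and 3 and the weaker 12.7 and 33.97, and neither was listed in replicate 1. At the limits of the rule, the peak of cdc-14 and ttc-4 (signal 39.97) stood at -994 bp from ttc-4 and that of nasp-2 and C50B6.3 (signal 39.8) at -987 bp from nasp-2. Just outside, a peak at mdt-22 (signal 49.1) was at -1014 bp from nep-26, and 1 at tsp-21 (signal 64.1) was at -1014 bp from nra-3. In all, 15 of the 259 peaks lay within 100 bp inside a limit and 21 single-strand promoter peaks within 100 bp outside.

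Most head-to-head gene pairs had no IDR peak. Neighbouring protein-coding genes stood head to head, with windows that met, in 2560 pairs, and 257 of them (10%) had an IDR summit in the shared window. A region of the longer pooled list was found in 996 pairs (38.9%). Of all 19973 protein-coding genes, 1207 (6.04%) had an IDR summit in their window. Of the genes in pairs 11.5% had one, and of the 14853 genes in no such pair 618 (4.16%) had one. A summit in a shared window was counted for both genes of the pair. Genes of bidirectional promoter peaks were 514 of the 589 genes in pairs with a summit. Pairs with a peak were closer together, with a median distance of 476 bp against 705 bp for pairs without. This difference depends in part on the rule, which narrows the shared window of pairs over 800 bp apart and also that of close pairs.

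The share of pairs with a peak was highest at distances over 200 and up to 400 bp, where 74 of 474 pairs (15.6%) had one. It was 10.1% up to 200 bp, 14.5% from 400 to 600 bp, 12.3% from 600 to 800 bp and 11.4% from 800 to 1000 bp. From 1000 to 1500 bp it was 4.29% and from 1500 to 2000 bp 1.53%. By the rule the shared window is widest for ends 800 bp apart, and narrower for closer and for more distant ends. Per Mb of shared window the density was 224 summits at 200 to 400 bp, 189 up to 200 bp and 160.1 at 400 to 600 bp. It lay between 58.7 and 112 per Mb at greater distances. At the shortest distances the summit was a median of 22 bp from the nearer end, and 10 of 25 peaks were not between the ends.

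**Figure D4:**
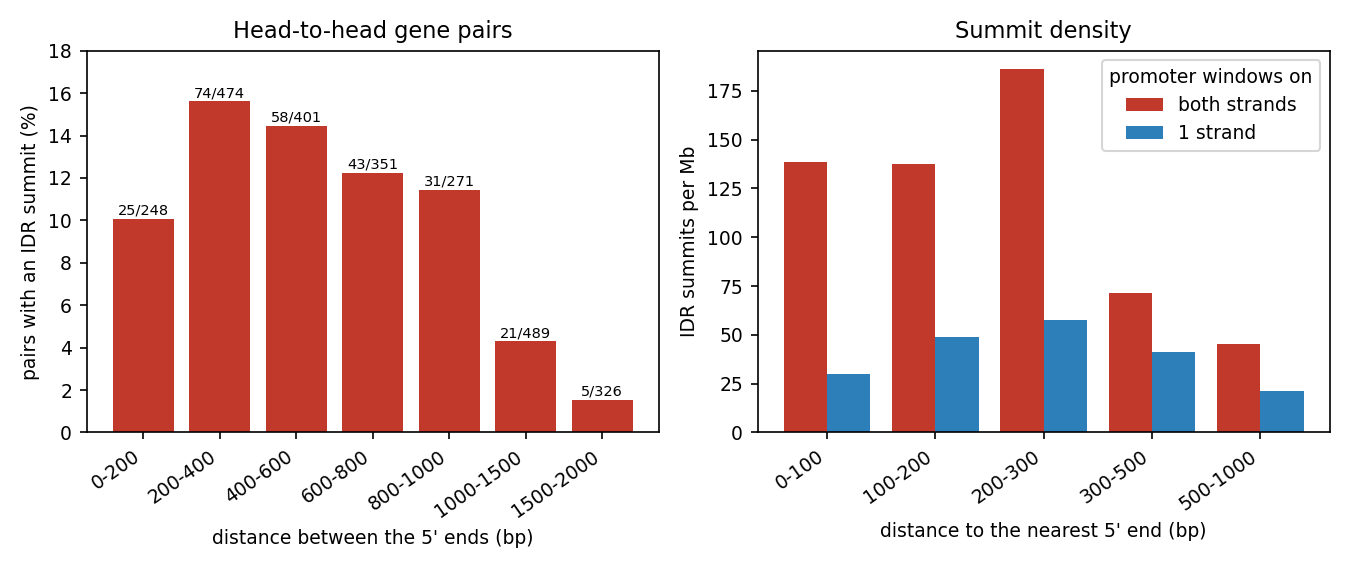
Left, share of head-to-head gene pairs with an IDR summit in the shared window (%), by distance between the 5' ends, with the number of pairs over each bar; right, IDR summits per Mb by distance to the nearest 5' end, in bidirectional and single-strand windows. The share of pairs is highest at 200 to 400 bp (15.6%), and the density is higher in bidirectional windows in each of the bins.

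Chromosome III had the largest share of pairs with a peak and V the smallest. The peaks numbered 50 on I, 41 on II, 56 on III, 47 on IV, 51 on V and 14 on X. Of the pairs, 14.3% had a peak on III, 11.7% on I, 10.7% on IV, 8.80% on II, 7.87% on X and 7.54% on V. X carried 5.41% of bidirectional promoter peaks and 24.1% of single-strand promoter peaks. It also has fewer head-to-head pairs, 178 in all or 10.05 per Mb, against 28.9 per Mb on the autosomes, and bidirectional windows were 0.659% of its sequence against 2.39% on the autosomes.

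The 259 peaks had 535 genes in their windows. Of these, 258 were the nearest gene of a peak, and 275 were not the nearest gene of any promoter peak in the IDR set, so they enter the picture only when both sides are counted. The groups below were formed by gene symbol, 20 in all. They do not take in every gene of a kind. For example, the respiratory chain genes ndua-8, nduc-2, mev-1, nduv-3 and ndub-8 had a peak but fell in no group. The same held for the HSP70 genes F44E5.4 and F44E5.5. Shares, their order and counts of listed genes are thus those of the symbol patterns. Each group is given as the share of its genes in head-to-head pairs that had a peak in the bidirectional promoter. Over all genes of such pairs that share was 10% (514 of 5120).

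Genes of cytosolic ribosomal proteins had the highest share in the IDR set and in replicates 2 and 3. Of 83 genes in the group 49 stood in head-to-head pairs, and 31 of them (63.3%) had a peak. Only 12 were the nearest gene, and 19 were the farther gene at each of their peaks. In the replicates' own strongest regions 9, 26 and 25 of the 49 had a peak in replicates 1, 2 and 3, or 40.8% ± 19.5 (SD, n = 3), against 7.97% ± 2.92 (SD, n = 3) of all genes of pairs. The share was the higher one in 3 of 3 replicates, and that of replicate 1 (18.4%) was far below those of replicates 2 (53.1%) and 3 (51.0%). In replicate 1 chaperones (23.8%) and chromatin regulators (23.3%) had higher shares than ribosomal proteins. Among peaks required in the other 2 replicates, 22 genes were left when replicate 1 was set aside, 6 for replicate 2 and 5 for replicate 3. The 31 genes belonged to 28 peaks, of which 6, 23 and 22 were among the strongest regions of replicates 1, 2 and 3. Only 5 of the 28 (17.9%) were among those of every replicate, against 26.6% of all 259 peaks. The median signal of the 28 peaks was 57.8, and 8 of them were among the 30 strongest of the 259.

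At 3 peaks both genes encoded cytosolic ribosomal proteins. These were rps-14 and rpl-36 (chrIII:7179792-7179936, signal 107.5), rpl-39 and rps-30 (chrV:7776167-7776516, signal 49.8) and rps-10 and rpl-24.1 (chrI:4584674-4585023, signal 35.1). Replicates 2 and 3 gave signals of 51.4 and 48.7 at the first, 30.5 and 21.5 at the next and 16.0 and 15.7 at the last. Replicate 1 gave 3.10 at the first and listed no region at the others, so all 3 rest on replicates 2 and 3. At a further 3 peaks the partner belonged to another group. These were rpl-12 with lin-54, rpl-7A with set-21, a SET-domain gene (signal 51.96), and rpl-28 with mrpl-49 of the mitochondrial ribosome (signal 49.8). The rpl-28 and mrpl-49 peak differed in that it had 11.3 in replicate 1 and 8.61 and 36.4 in replicates 2 and 3.

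Chaperones came next, with 16 of 42 genes in pairs (38.1%). The strongest peak lay between cct-8, a subunit of the CCT chaperonin, and Y55F3AR.2 (chrIV:1094268-1094444, signal 112.5), with 9.54, 48.4 and 52.1 in replicates 1, 2 and 3. The group also had hsp-60, the mitochondrial chaperonin (signal 110.95), cct-1 (signal 110.8) and hsp-110, which stood opposite rpn-3 of the proteasome (signal 106). The hsp-110 and rpn-3 peak had 55.5 and 51.1 in replicates 2 and 3 and was not listed in replicate 1. Across replicates the share was 33.3% ± 8.25 (SD, n = 3), and the lowest value, 23.8% in replicate 1, was above that of all genes of pairs in any replicate. The median signal of the 16 peaks was 77.0, and 8 of them were among the strongest regions of every replicate.

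Chromatin regulators had a peak at 10 of 30 genes in pairs (33.3%; 28.9% ± 5.09 over replicates, SD, n = 3), led by lin-54 and set-16 and including htz-1, the H2A.Z variant, and lin-53, the RbAp46/48 homologue. Their 10 peaks had a median signal of 76.0, and 6 were among the strongest regions of every replicate. The next 10 groups lay between 11.1% and 22.7%, each with 3 to 12 genes that had a peak. Transcription machinery had 5 of 22, translation factors and tRNA synthetases 8 of 38, vesicle traffic 12 of 59 and nuclear pore and transport 5 of 25. Splicing and RNA-binding had 9 of 46, mitochondrial ribosomal proteins 5 of 27, the proteasome 4 of 22, the respiratory chain and ATP synthase 4 of 23, DNA replication and cell cycle 6 of 39 and ubiquitin and CDC-48 3 of 27. The last of these was near the share of all genes of pairs. In replicate 1, 3 of these groups were below the 4.67% of all genes of pairs. The proteasome had 0%, 18.2% and 18.2% in replicates 1, 2 and 3, ubiquitin and CDC-48 0%, 14.8% and 7.41%, and transcription machinery 4.55%, 13.6% and 18.2%. The remaining 7 had mean shares of 11.6% to 17.5% over replicates.

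The strongest peaks of these groups were at vps-32.1, a subunit of ESCRT-III (signal 133, opposite icd-1 of the nascent polypeptide-associated complex), at iff-2, and at apb-1, a beta subunit of clathrin adaptors, with mdt-19 of the Mediator complex (signal 111.4). At atp-1, which encodes ATP synthase subunit alpha (signal 111.5), the summit lay 8 bp downstream of the 5' end, opposite mcrs-1. Others were mrps-7 (signal 93.5), efl-1, an E2F homologue with fbxa-90 as partner (signal 90.5), and npp-3, a nucleoporin that stood opposite top-2, a topoisomerase II (signal 88.9). The list closed with rsr-1, an SR-related splicing protein opposite the chemoreceptor gene sri-5 (signal 75.3), and ubq-2, a ubiquitin gene (signal 58.2). The SR splicing factors rsp-2 and rsp-1 shared a peak (chrII:11453020-11453369, signal 68.95) with 5.83, 28.0 and 34.6 in replicates 1, 2 and 3, found among the strongest regions of each. The adaptor subunit aps-1 and the proteasome subunit rpt-2 shared 1 of signal 41.2, which was not listed in replicate 1.

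The other 7 groups had shares below that of all genes of pairs in the IDR set. Chemoreceptors had 5 of 282 genes in pairs (1.77%), F-box genes 2 of 98 (2.04%), C-type lectins 1 of 79 (1.27%) and histones 2 of 64 (3.13%). Nuclear hormone receptors (3 of 44, 6.82%), collagens (3 of 41, 7.32%) and homeobox genes (1 of 11, 9.09%) were nearer to it, on few genes. The histone genes his-67 and his-68 shared a peak (signal 73.0), and since histone genes occur in near-identical copies its reads could be split between copies. The collagen genes col-117 and col-3 shared 1 (signal 54.9), listed in replicates 2 and 3 alone. Further peaks in these groups were at nhr-47, a nuclear hormone receptor gene opposite the J-domain chaperone dnj-19 (signal 68.9), and the pair of clec-57 and srz-97 (signal 39.5), found among the strongest regions of replicate 3 alone. In all, 16 peaks (6.18%) had listed genes on both strands, against 7.85% of all pairs, 102 had 1 on a single strand and 141 had none.

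**Figure D5:**
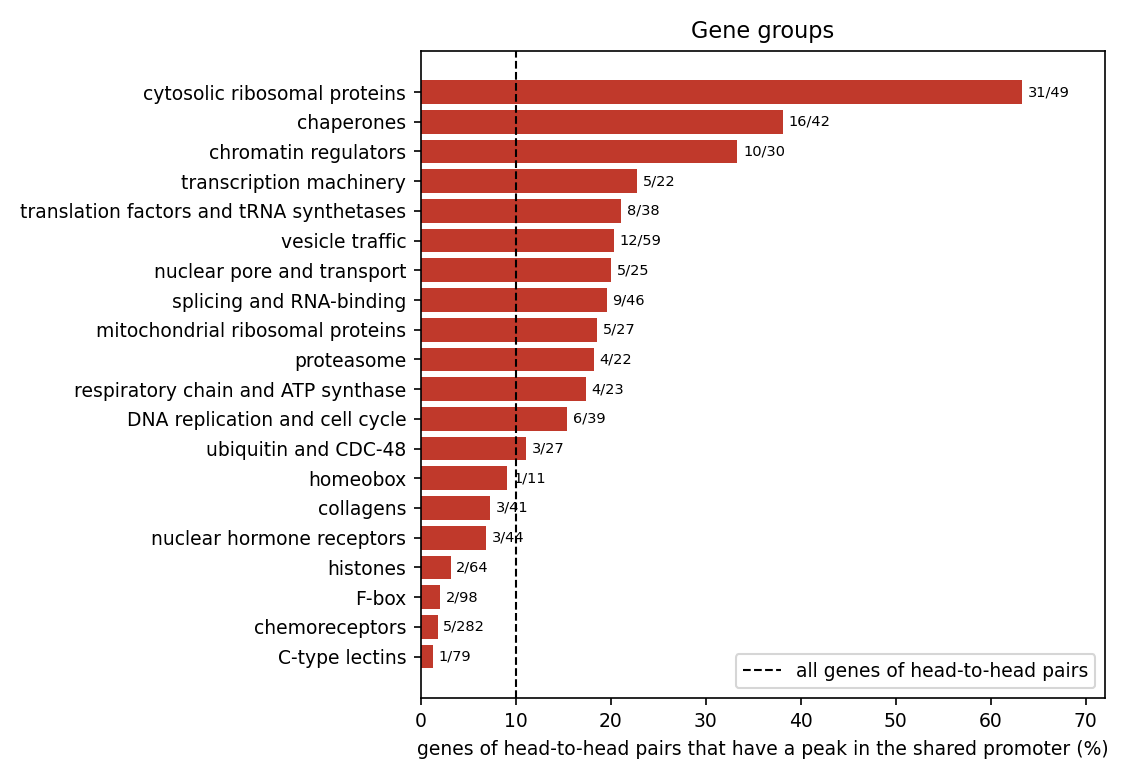
Share of the genes of each group in head-to-head pairs that have an IDR peak in the bidirectional promoter (horizontal axis, %), with the numbers beside each bar; the dashed line is the share of all genes of pairs (10%). Cytosolic ribosomal proteins stand at 63.3%, and chemoreceptors, F-box genes and C-type lectins are below 3%.

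The hexamer ACCGTA was more common at bidirectional than at single-strand promoter peaks. It was found, on either strand, within 100 bp of the summit at 53 of the 259 peaks (20.5%). The share was 5.22% at single-strand promoter peaks and 3.84% at peaks outside promoters. It was 3.28% in the flanks, windows of the same length 500 bp to each side, and 8.29% at the midpoints of pairs without a peak. The farther 5' end was a median of 344 bp from the summit, so many flanks lie past a 5' end, on the side of the gene. The hexamer was picked after its values were seen, among 536 hexamers present at 10% or more of the peaks. It had the highest ratio to single-strand promoter peaks, with 1 percentage point added to both shares. The replicates' own strongest regions gave 14.9%, 19.4% and 19.3% in bidirectional and 4.26%, 5.28% and 6.00% in single-strand promoters. The difference was 12.7 ± 1.83 percentage points (SD, n = 3). The IDR set in which the hexamer was picked was made from these replicates, so their values are a description and no independent check. The median distance of the closest match from the summit was 26.5 bp. Of 57 matches 26 had T in front, and TACCGTA was found at 9.65% of bidirectional and 2.09% of single-strand promoter peaks. Among the 28 peaks with a ribosomal protein gene, 12 (42.9%) held ACCGTA, as the rpl-20, rpl-15 and rps-1 sequences printed above do. Like shares were seen in other groups on few peaks. They were 2 of 4 for the respiratory chain, 2 of 5 for mitochondrial ribosomal proteins and 3 of 8 for translation factors. Other groups were lower, such as chaperones with 3 of 16 and DNA replication and cell cycle with 0 of 6.

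GAGAGA, by contrast, was less common in bidirectional promoter peaks in the IDR set. It was found at 73 of them (28.2%), at 46.1% of single-strand promoter peaks and at 56.4% of peaks outside promoters, with 11.6% in the flanks. The order did not hold in every replicate. In replicates 2 and 3 it was found at 27.8% and 28.3% of bidirectional and 45.2% and 45.1% of single-strand regions, but in replicate 1 at 30.6% and 27.7% (difference -10.5 ± 11.5 percentage points, SD, n = 3; exact paired permutation test, two-sided, p = 0.5). In the IDR set the difference was -17.9 points, and among peaks required in the other 2 replicates it was -20.1 when replicate 1 was set aside, -8.90 for replicate 2 and -6.87 for replicate 3. Only 2 of the 28 peaks with a ribosomal protein gene held GAGAGA. Groups with fewer peaks varied, from 0 of 4 for the proteasome and 0 of 4 for the respiratory chain to 5 of 12 for vesicle traffic.

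No such difference was seen for TGCGTC. It was found at 27.03% of bidirectional promoter peaks, 28.5% of single-strand promoter peaks and 5.02% of the flanks, and the replicates differed by 0.0392 ± 0.894 percentage points (SD, n = 3; exact paired permutation test, two-sided, p = 1). Of the 3 motifs, 106 peaks held 1, 39 held 2, 4 held all 3 and 110 held none. Whether these counts differ from those that the separate shares would give was not tested. Peaks with ACCGTA had a median signal of 59.1 and those without 52.6, peaks with TGCGTC 59.3 and 52.3, and peaks with GAGAGA 54.3 and 53.98. A further 3 hexamers picked after their values were seen were GCGCAC, found at 23.9% of the peaks and 15.9% of single-strand promoter peaks, GCGCCA, found at 25.1% and 15.2%, and CGCTCC, found at 20.5% and 9.84%.

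The listed sites of known factors lay on both sides of their shares at single-strand promoter peaks. GATAAG, the core of GATA factor sites, was found at 15 peaks (5.79%), at 12.2% of single-strand promoter peaks, 6.56% of the flanks and 9.25% of pairs without a peak. The E-box CACGTG was found at 6.18% of bidirectional and 7.75% of single-strand promoter peaks, the NF-Y site CCAAT at 31.3% of both, and the TATA box TATAAA at 12.4% and 12.2%. In the flanks the E-box was found at 3.67% and the NF-Y site at 33.6%. TATAAA was at 15.4% of the flanks and 28.0% of the midpoints of pairs without a peak. The CRE site TGACGTCA was found at 1.16% of bidirectional and 2.98% of single-strand promoter peaks, and the AP-1 site TGACTCA at 1.16% and 3.13%. The ETS site ACTTCC was found at 6.18% and 8.20%, and the FOXO site GTAAACA at 3.47% and 3.87%. Of the other listed sequences, TTTTTTTT was found at 14.3% and 8.49% and TTTCAG at 17.8% and 13.6%. TTTCAG was at 45.6% of the flanks and 32.1% of the midpoints of pairs without a peak. The GC box CCGCCC of Sp1 and KLF factors was found at 11.6% of bidirectional and 9.54% of single-strand promoter peaks, 7.97% of peaks outside promoters, 2.90% of the flanks and 4.86% of pairs without a peak. The E2F core GCGCGAAA was found at 4.25%, 3.73%, 0.937%, 0.193% and 1.22% of these windows in the same order. The sets of windows also differed in base composition. The G+C content of the windows had a median of 41.8% at bidirectional promoter peaks, 43.8% at single-strand promoter peaks, 37.8% in the flanks and 32.8% at pairs without a peak. Its part in the motif shares was not tested.

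A trans-splice acceptor sequence, TTTCAG, stood directly before the annotated 5' end of 132 of the 535 genes (24.7%), against 23.4% of genes with single-strand promoter peaks only, 12.9% of all genes in pairs and 12.3% of all protein-coding genes. For these genes the distances above may run from a splice site. A noncoding RNA gene, other than a piRNA or a pseudogene, was annotated within 100 bp of the summit at 38 of the 259 peaks. The same count was not made for other IDR peaks. The genes included tRNA genes at 3, snoRNA genes at 3 and snRNA genes at 2 of the 38. At such places the peak cannot be assigned to the protein-coding genes alone. The strongest peak with a tRNA gene within that distance was that of sec-15, a subunit of the exocyst, and C28G1.2 on X (chrX:8835899-8836123, signal 129). Among the peaks named above, the stronger gcy-33 and cpr-9 peak also had a tRNA gene there. The clec-57 and srz-97 peak had an snRNA gene. Other noncoding RNA genes lay there at the peaks of nhl-2, ifet-1 and rps-1, vps-32.1, and hsp-110 and rpn-3. The same held for rpl-39 and rps-30, rps-10 and rpl-24.1, nhr-47 and dnj-19, and aps-1 and rpt-2.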

How the data were processed

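ChIP-seq of tagged EGL-27 was done in whole L2 larvae in 3 biological replicates, 1 group. Per the file headers and notes, the authors made a list of peaks and background for each replicate and for the pooled replicates, against a control, and an IDR set from them, on ce11. For each region the authors deposited a signal on an unnamed scale. They also deposited its summit offset and a -log10 q-value, which the authors' lists share at its highest value and which was not used to rank. Which aligner, peak caller and IDR threshold were used is not given in the sources used here. Read counts are not in these tables, so depth is unknown and intervals that need it are left out. The control and the lists on ce10 were not used here.

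Positions are on ce11 (WBcel235), with 5' ends of genes from Ensembl release 115 and sequence from RefSeq. Summits were classified by the window of 1000 bp upstream to 200 bp downstream. Values over replicates (mean ± SD, n = 3) come from every list's 1997 strongest regions, and were compared by exact paired permutation of signs, two-sided. The rank difference is the exception: it comes from the whole lists, without peaks that a list lacks. An IDR peak was found in a replicate where at least 1 bp overlapped. Peaks and genes are not replicates and were given no p. Motifs were searched on both strands within 100 bp of the summit, and at pairs without a peak around the midpoint. The rule was tested on simulated data. Python 3.11.15, pandas 2.3.3, numpy 2.4.6 and scipy 1.17.1 were used.

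The peaks, gene groups and motifs were chosen with earlier results of these data known. The chemoreceptor and collagen groups were corrected, and 4 hexamers picked, after values were seen. Named are the 12 strongest peaks, the strongest of each group, all with listed genes on both strands, pairs with 2 peaks and those nearest the limits. The tRNA, lsm-3, hsp-60, cct-1, htz-1 and lin-53 peaks were named after their values were seen. Alternatives were windows of 500 and 2000 bp, 5' ends of every transcript, the stronger 998 peaks, another overlap, whole lists, sequence outside exons and each replicate left out.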

Additional observations from a re-analysis of the deposited data

How the results depend on the processing

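The density excess over single-strand promoters kept its sign in 8 of 8 alternatives (33.3 to 133 per Mb), and so did the difference in GAGAGA in the IDR set (7 of 7), while the share of summits between the ends moved by less than the SD between replicates in 7 of 7. With windows of 500 and 2000 bp the peaks were 9.01% and 18.98% of the IDR set, the nearest end was at 129 and 172 bp, and the ACCGTA excess, 15.3 points as reported, was 12.7 points with 2000 bp. Among the stronger 998 IDR peaks there were 144 bidirectional promoter peaks, 5.625% of pairs with a peak, 17 ribosomal protein genes, an ACCGTA excess of 17.6 points and a rank difference of 52.7, opposite to the one reported. Leaving out 1 replicate keeps only the peaks shared by both others, so numbers fall by construction. The ranges were 74 to 168 peaks, 2.85% to 6.52% of pairs, 5 to 22 ribosomal protein genes, 148 to 170 bp to the nearest end, 16.4 to 17.6 points for ACCGTA, -114 to 2.25 for the rank difference and 28.6% to 64.9% found in every replicate left. That share was 60.2% with whole lists. The cause of the other shifts was not tested.

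No paired analysis was possible because all 3 replicates belong to 1 group, so there is no other group to match by replicate number. The permutation tests pair classes of sequence within a replicate. Depth is unknown, and with 3 replicates no permutation p can fall below 0.25. Replicate 1 has the shorter list and fewer of the peaks.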
